A study of Homo sapiens with 8 samples.

Results

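The 9 genes SPI1, SPIB, ETS1, ETS2, ETV6, ELF1, ELF4, ETV3 and ELK3 encode transcription factors of the ETS family, and their chromatin was examined in HL-60 cells, an established human promyelocytic leukemia line, with and without all-trans retinoic acid (ATRA). The 9 were chosen by name among 20098 protein-coding genes of chromosomes 1 to 22 and X, and all 9 were found in the annotation. The ATRA cells had received 1 µM ATRA in ethanol for 4 days, and the control cells an equal volume of ethanol, with the medium and the agent renewed at day 2 in both groups. Histone ChIP-seq was performed for H3K4me3, the trimethylation of histone H3 that marks active gene starts, and for H3K27ac, the acetylation that marks active starts and enhancers. Each mark had 2 replicate libraries per condition, 8 in all, and for each library the deposited table lists broad peaks, which are stretches of the genome where reads were enriched. All values below are lengths under peaks. The numbers of reads behind them are unknown, and more cells carrying a mark and more of the mark per cell cannot be told apart in such libraries.

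ETS factors share a winged helix-turn-helix domain that binds DNA around the core GGAA. SPI1, also called PU.1, is the member that directs the granulocytic and monocytic lineages, and its level is set in part by an upstream regulatory element about 17 kb before its start, to which SPI1 itself and other factors bind. Other ETS factors act in lymphoid cells, as repressors, or as targets of growth factor signalling, and many of them are found together in one blood cell.

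The libraries differed in how much of the genome they called. H3K4me3 peaks covered between 47.7 and 63.2 Mb per library, with the second control library lowest. H3K27ac peaks covered 64.8 and 86.1 Mb in the ATRA libraries against 28.8 and 54.0 Mb in the control libraries, so that the first control library held the least. Over all genes tested, the median log2 change of covered length in a gene window, ATRA minus control, was above 0, at 0.16 for H3K4me3 and 0.52 for H3K27ac. Changes of single genes are given beside these medians, and after each library was centred on its own median, which lowered every H3K4me3 window change by 0.19 and every H3K27ac window change by 0.60. As a check of the cells, the starts of CD38, ITGAM and CYBB, genes that ATRA is known to induce in this line, lay under H3K4me3 in both ATRA libraries and in neither control library. Within 2 kb of the start, however, CD38 and ITGAM had an H3K4me3 peak in both control libraries as well, and CYBB in neither. MPO and CD33, myeloid markers, were under H3K4me3 in all 4 libraries, while no peak covered the starts of the granule genes ELANE and AZU1 or of LYZ in any library. The start of PRTN3, another granule gene, was under H3K4me3 in both ATRA libraries and in neither control library. Of 7 markers of other tissues and lineages, 6 had no peak at the start in any library, and CD79A, a B-cell gene, had one in 3 of 4.

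Sequences at the SPI1 and ETS1 loci are printed 5′ to 3′ on the strand of the gene, from GRCh37, which is the hg19 build of the peak files. Their letters entered none of the measures or tests below. The first is a stretch of 300 bases of the SPI1 upstream element from 17266 to 16967 bases before the start (chr11:47417065-47417364, minus strand). Capitals mark GGAAGT, or ACTTCC where the letters lie on the opposite strand. These letters extend the ETS core GGAA, and the stretch is shown as the part of the element that holds them.
SPI1 upstream element: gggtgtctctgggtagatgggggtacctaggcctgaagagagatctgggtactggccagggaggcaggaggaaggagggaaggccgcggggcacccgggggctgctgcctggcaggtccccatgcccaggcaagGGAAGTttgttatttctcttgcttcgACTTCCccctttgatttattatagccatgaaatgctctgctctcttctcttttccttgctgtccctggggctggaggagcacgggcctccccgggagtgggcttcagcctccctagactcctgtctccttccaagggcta
GGAAGT occurred at 2 positions of the upstream element, 17132 to 17127 and 17106 to 17101 bases before the start, and these were the only matches on either strand between 16 and 18 kb upstream. Of all 20098 promoters of 300 bases, from 250 bases before to 50 after the start, 23.6% held GGAAGT on either strand. The longer letters CCGGAAGT, which contain it, were in 5.08% of promoters, and GAGGAAGT, which also contains it, in 2.40%. Neither was found between 16 and 18 kb before SPI1. That interval is longer than a promoter of 300 bases, so the promoter shares are no background for it. GGAAGT was chosen after the sequences had been seen, and a match is a string of letters only.
The next sequence is the 250 bases before the start inside the ETS1 gene (chr11:128392206-128392455, minus strand), shown because H3K4me3 lay over this start in every library. Here capitals mark each CG.
ETS1 inner start: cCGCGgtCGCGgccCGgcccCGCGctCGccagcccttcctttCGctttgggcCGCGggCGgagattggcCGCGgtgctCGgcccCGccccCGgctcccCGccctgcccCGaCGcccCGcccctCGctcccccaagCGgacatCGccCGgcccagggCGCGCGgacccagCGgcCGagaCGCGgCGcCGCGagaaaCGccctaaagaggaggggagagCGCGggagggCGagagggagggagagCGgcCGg
This sequence held 41 CG and 80.0% G or C. The median of all 20098 promoters was 14 CG and 59.6%. Before the starts of the other members that lay under H3K4me3 in every library, CG numbered from 7 (SPI1) to 37 (ELK3).

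SPI1 was the member with the largest share of its surroundings under H3K27ac in every library, and the stretch between its promoter and its upstream element lay under H3K27ac over its whole length in the ATRA libraries only. The gene lies at chr11:47376411-47400098 on the minus strand, and its window, which is the gene with 20 kb on each side, measures 63.7 kb. In both ATRA libraries, 1 continuous H3K27ac peak ran from within the gene through the promoter and the upstream element, to 23.5 and 23.4 kb before the start. In both control libraries, the promoter peak ended 2.68 and 1.87 kb before the start, a small peak of 1004 and 769 bp followed, and a separate peak began 9.37 and 8.99 kb before the start and ran through the element.

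**Figure D1:**
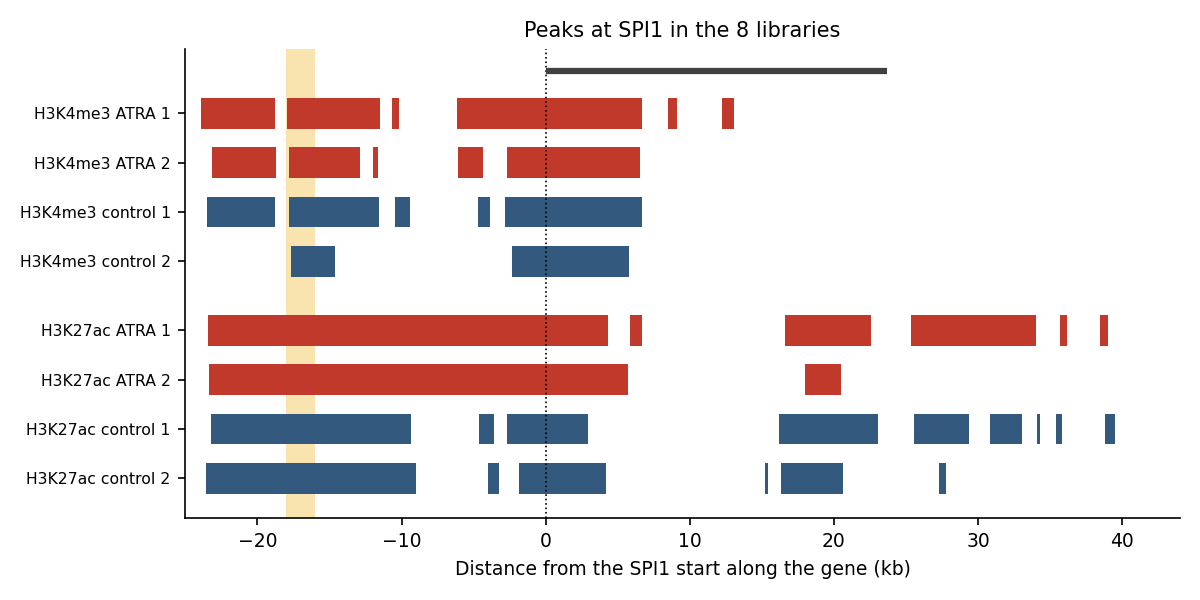
Peaks of the 8 libraries at SPI1, by distance from the start in kb (negative values are upstream, the grey bar is the gene, the dotted line its start). The shaded band spans 16 to 18 kb upstream, and the H3K27ac peaks of both ATRA libraries are continuous from the gene through the band, while those of both control libraries are interrupted between 4.61 and 8.99 kb upstream.

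The H3K27ac peak over the SPI1 start was 27788 and 29056 bp long in the ATRA libraries and 5650 and 6030 bp in the control libraries, and the groups did not overlap. In 38.7% of the 6613 genes with such a peak in at least 2 libraries, both ATRA peaks were longer than both control peaks, and in 4.55% both were shorter. A start peak that reached at least 16 kb upstream in both ATRA libraries and in neither control library was found at 4 of these genes (0.0605%), SPI1, RCSD1, C10orf105 and CCL2, and the reverse at 0. This count was made after the SPI1 peaks had been seen, and the other 3 genes are named for that reason only. The stretch under H3K27ac in both ATRA and neither control library measured 4385 bp, from 4.61 to 8.99 kb before the start (chr11:47404707-47409091), and overlapped 677 bp of exons of the long noncoding RNA SLC39A13-AS1. It also overlapped 101 bp of the annotated microRNA AC090559.2. H3K4me3 showed an ATRA-only stretch in the same interval, of 1389 bp from 4.71 to 6.10 kb before the start. For H3K27ac, 28% of the 14361 windows tested held at least 1 ATRA-only stretch of 1000 bp or more, and 3.91% a control-only one. For H3K4me3, the shares were 10.3% and 1.33% of 14215 windows.

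The upstream element itself was under H3K27ac in every library. Between 16 and 18 kb before the start (chr11:47416098-47418098), all 2001 bp lay under H3K27ac peaks in the 2 ATRA and the 2 control libraries, so this measure could register no difference. Under H3K4me3 lay 1949 and 1818 bp in the ATRA libraries and 1791 and 1689 bp in the control libraries, a mean of 1884 against 1740 bp. Both ATRA values were above both control values, and the exact two-sided permutation test gave p = 0.333, the smallest that 2 against 2 libraries allow. The annotation places starts of SLC39A13-AS1 inside the element and within the printed 300 bases, at 3 positions between 17.06 and 17.12 kb before SPI1. By the deposited q-values, no H3K27ac peak in the SPI1 window reached a −log10 q of 5 in any library. The continuous ATRA peaks had −log10 q of 2.13 and 2.95, and the control peaks over the element 1.69 and 3.97. Whether these values rank peaks by strength was not tested. At ELF1 in the second ATRA library, an H3K4me3 peak of 581 bp inside the gene had 53.8, and the start peak of 8850 bp had 11.5.

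Over its whole window, SPI1 had 40955 and 28177 bp under H3K27ac in the ATRA libraries (64.3% and 44.2% of the window) and 31578 and 22800 bp in the control libraries (49.6% and 35.8%). The groups overlapped, since the second ATRA library lay below the first control library. The log2 change was 0.33 ± 0.41 (SE, n = 2 per group, limma with Benjamini-Hochberg adjustment over 14361 genes, adjusted p = 0.71), and −0.27 after centring. With 1 library left out, it lay between 0.07 (without the first ATRA library) and 0.59 (without the second). The first ATRA library and the first control library also held several H3K27ac peaks beyond the 3′ end of the gene, around the start of the neighbouring gene MYBPC3 at 25.8 kb, where the second ATRA library had none. H3K4me3 covered 22318 and 17575 bp in the ATRA libraries and 18851 and 11194 bp in the control libraries, which overlapped as well. Its log2 change was 0.42 ± 0.27 (SE, limma, adjusted p = 0.61), against 0.16 over all genes, and it was 0.07 without the second control library and 0.77 without the first. The 4001 bp around the SPI1 start were entirely under H3K4me3 in all 4 libraries, so the promoter measure could register no gain of that mark. H3K27ac covered all 4001 bp in 3 libraries and 3867 bp in the second control library, which left little room for a gain (log2 change 0.02).

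The 3 genes whose share of window under peaks was most like that of SPI1 over the 8 libraries were ALAS1, the gene annotated as ENSG00000173366 and SEPHS2, with root mean square differences of 6.83, 7.21 and 7.51 percentage points. The windows of the first and second of these overlap on chromosome 3.

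SPIB, the closest relative of SPI1 and a factor of B cells and plasmacytoid dendritic cells, had no peak of either mark within 2 kb of its start (chr19:50922195-50934571, plus strand) in any library. The window held 1 H3K4me3 peak per library, 2438 and 2163 bp in the ATRA libraries and 2091 and 1367 bp in the control libraries. These peaks began 11.8 to 12.4 kb after the SPIB start, and at 13.95 kb the annotation places the start of the neighbouring gene MYBPC2. H3K27ac was called there in the second ATRA library alone, over 1212 bp, so the gene was not tested for that mark. For H3K4me3, the log2 change was 0.29 ± 0.18 (SE, limma, adjusted p = 0.60).

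ETS1, a factor known best from lymphoid cells, lies at chr11:128328656-128457453 on the minus strand and had H3K4me3 over its inner start in every library. No peak of either mark lay within 2 kb of its first start in any library. Between 3.24 and 5.45 kb after the first start, H3K4me3 peaks measured 2210 and 1046 bp in the ATRA libraries and 554 bp in the first control library. H3K27ac peaks of 3906 and 2721 bp began near there in the second ATRA and the second control library. Around the cluster of 4 transcript starts 65 kb after the first start, H3K4me3 covered 4110 and 3791 of 4110 bp in the ATRA libraries and 3503 and 3393 bp in the control libraries. H3K27ac covered 504 and 3303 bp of the same interval in the ATRA libraries and 0 and 417 bp in the control libraries. Both ATRA values were the higher ones for each mark, and this inner interval was not part of the tests across genes.

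**Figure D2:**
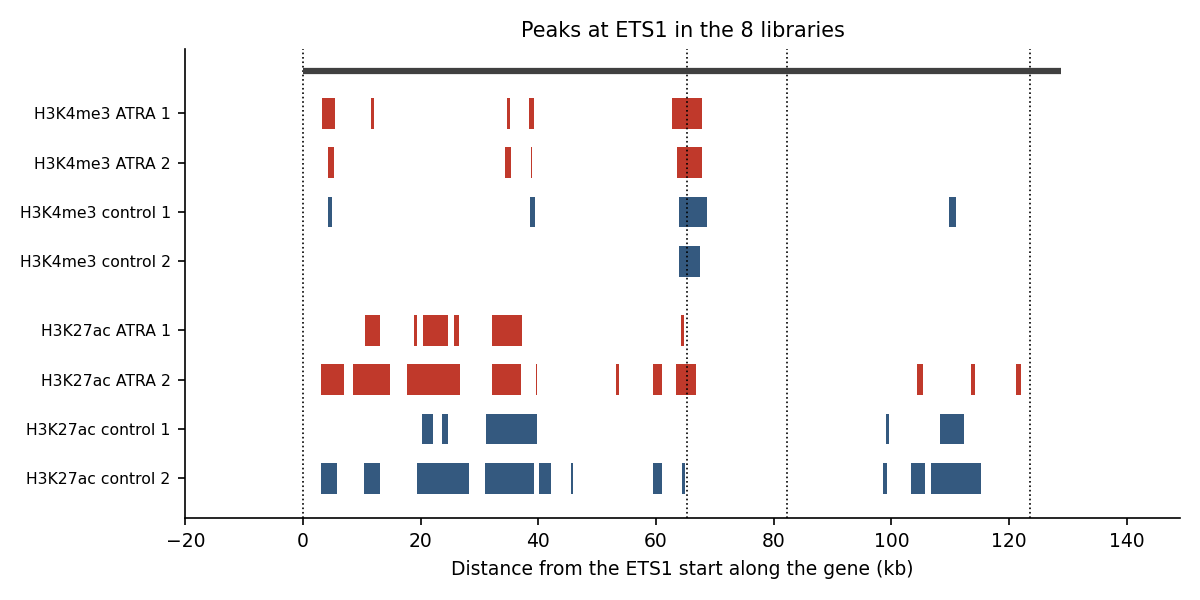
Peaks of the 8 libraries at ETS1, by distance from the first start in kb (the grey bar is the gene, the dotted lines are groups of annotated starts). H3K4me3 lies over the inner start near 65 kb in all 4 libraries and over the first start in none, and the H3K27ac peaks between 108.2 and 112.3 kb are in the 2 control libraries only.

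ETS1 was the only one of the 8 members tested for H3K27ac windows with a negative log2 change. H3K27ac covered 13603 and 32191 bp of its window in the ATRA libraries and 16261 and 38543 bp in the control libraries. In both replicate numbers, the ATRA library had less than the control library of its number, while the libraries of replicate 2 were the longer ones in both conditions, so the groups overlapped. The log2 change was −0.25 ± 0.64 (SE, limma, adjusted p = 0.87), and it was positive when the first ATRA library (0.35) or the second control library (0.35) was left out. Control-only stretches of at least 1000 bp were found at ETS1 alone among the members for H3K27ac, with 3 of them, 4159 bp at 108.2 to 112.3 kb after the first start, in intron 8 of 9 of the canonical transcript, 2021 bp at 37.2 to 39.2 kb in intron 3, and 1077 bp at 31.1 to 32.2 kb, over an ETS1 exon. H3K4me3 covered 9032 and 6569 bp of the window in the ATRA libraries and 7340 and 3562 bp in the control libraries, with overlap and a log2 change of 0.50 ± 0.32 (SE, limma, adjusted p = 0.61). This H3K4me3 change was 0.06 without the second control library, −0.57 with equal summed peak length and −0.85 with peaks of −log10 q of at least 5.

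ETS2, a nuclear target of growth factor signalling that is active in macrophages, lies at chr21:40177107-40196879 on the plus strand. H3K27ac covered 9113 and 9922 bp of its window in the ATRA libraries and 5896 and 6151 bp in the control libraries. The groups did not overlap, and the differences within replicate numbers were 0.55 and 0.61 on the log2 scale. The log2 change of 0.58 ± 0.35 (SE, limma, adjusted p = 0.43) was close to the median of all genes and −0.02 after centring. At the promoter, H3K27ac covered 3211 and 3189 of 4001 bp in the ATRA libraries and 1513 and 2149 bp in the control libraries, again without overlap, with a log2 change of 0.58 ± 0.20 (SE, limma, adjusted p = 0.41). A peak beyond the 3′ end of the gene, beginning between 24.97 and 25.59 kb after the start, was present in all 4 libraries, with lengths of 4513 and 3679 bp in ATRA and 3343 and 2173 bp in control cells. H3K4me3 over the window measured 6199 and 5625 bp in the ATRA libraries and 5088 and 4907 bp in the control libraries, which did not overlap (log2 change 0.20 ± 0.14, SE, limma, adjusted p = 0.62).

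ELF4 had the largest log2 change in H3K27ac window length of the members. The gene, a factor of natural killer cells and of innate responses, lies at chrX:129197930-129244691 on the minus strand. H3K27ac covered 16110 and 13501 bp of its window in the ATRA libraries and 4259 and 7552 bp in the control libraries, without overlap. Its log2 change was 1.23 ± 0.42 (SE, limma, adjusted p = 0.23), higher than that of 81.2% of the genes tested. With the replicate number as a block, the adjusted p by limma was 0.042, in a fit that called 21.7% of all genes higher and 1.4% lower, whereas without the block 0% of genes were called in either direction. The log2 change was 0.63 after centring (limma, adjusted p = 0.56), and −2.01 when each library was reduced to the same summed peak length by keeping its peaks of highest −log10 q (limma, adjusted p = 0.32). Most of the length lay in intron 1, where the 2 ATRA libraries each held a single peak of 12710 and 12022 bp, from 17.6 to 30.3 kb and from 17.7 to 29.7 kb after the start. The same interval held 1 peak of 3092 bp in the first control library and 3 peaks of 960, 4516 and 1112 bp in the second. The ATRA-only stretch there measured 3773 bp, 18.9 to 22.7 kb after the start (chrX:129222020-129225792). H3K4me3 was also called in this intron, in 3 of 4 libraries, and over the window it measured 12472 and 7255 bp in the ATRA libraries and 10232 and 2370 bp in the control libraries. These overlapped, and the log2 change of 0.78 ± 0.59 (SE, limma, adjusted p = 0.64) was −0.09 without the second control library. The −log10 q of the 12710 and 12022 bp peaks was 1.67 and 1.44.

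ETV6, a repressor needed for blood stem cells and a frequent partner in leukemic gene fusions, lies at chr12:11802608-12048311 on the plus strand and has the longest window of the 9, at 285.7 kb. There were 24 and 34 H3K27ac peaks in its window in the ATRA libraries and 10 and 24 in the control libraries. They covered 73642 and 105779 bp in the ATRA libraries and 26937 and 72673 bp in the control libraries. The lower ATRA library exceeded the higher control library by less than 1 kb, and the spread within each condition was several times that difference. The log2 change was 0.98 ± 0.59 (SE, limma, adjusted p = 0.44), or 0.37 after centring, and it was 0.28 without the first control library and 1.68 without the second. Within the replicate numbers it was 1.42 and 0.53. ATRA-only stretches of at least 1000 bp numbered 5. They lay at 72.5 to 76.6, 79.8 to 83.4 and 93.6 to 95.7 kb after the start in intron 1, at 102.2 to 104.3 kb over an annotated inner start of ETV6, and at 113.1 to 114.2 kb in intron 2. At that inner start, H3K27ac covered 2610 and 2994 of 4001 bp in the ATRA libraries and 0 bp in both control libraries, and no library had H3K4me3 there. At the first start, the H3K4me3 peak was 8465 and 8799 bp long in the ATRA libraries and 9333 and 8610 bp in the control libraries, which overlapped, and the log2 change over the window was 0.09 ± 0.25 (SE, limma, adjusted p = 0.90).

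**Figure D3:**
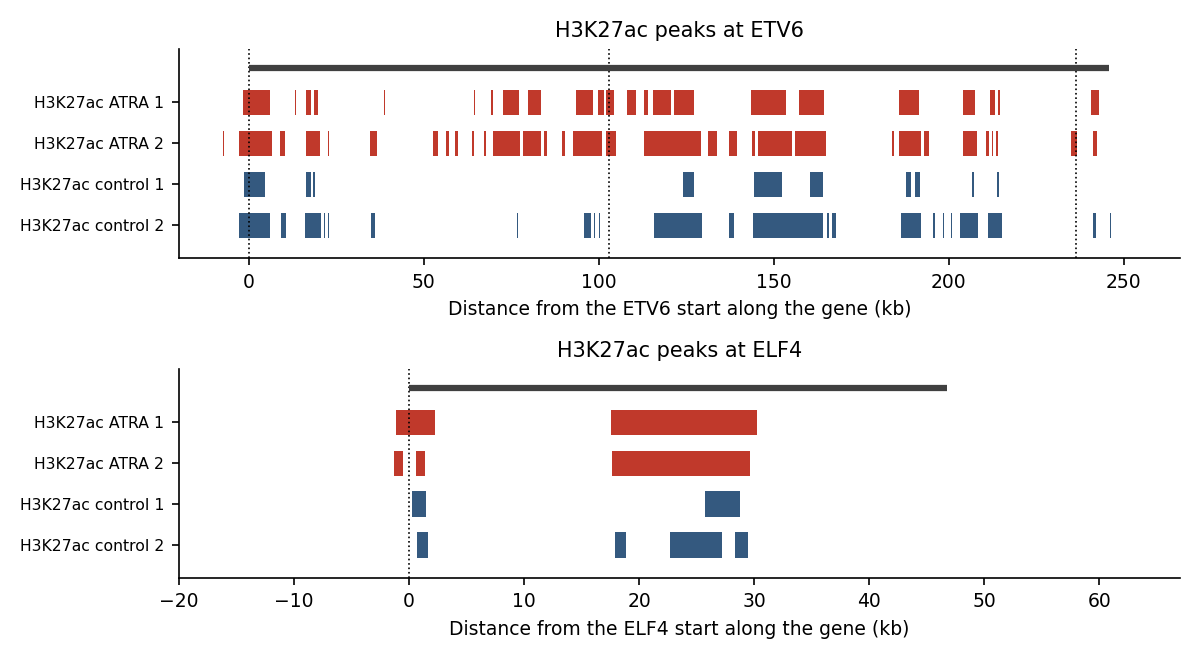
H3K27ac peaks at ETV6 and ELF4 in the 4 libraries, by distance from the start in kb (grey bars are genes, dotted lines groups of annotated starts). At ETV6 the stretches from 72.5 to 83.4 kb and, at ELF4, the stretch from 18.9 to 22.7 kb are under peaks in both ATRA libraries and hardly or not at all in the control libraries.

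ELF1, a broadly expressed activator in blood cells, lies at chr13:41506060-41635576 on the minus strand, with 3 groups of annotated starts, at 0, 42.1 and 78.5 to 79.2 kb. All 3 were under H3K4me3 in every library. The first lies 0.069 kb from the start of WBP4, which runs in the other direction, so the peak there belongs to both. H3K4me3 over the window measured 40193 and 31914 bp in the ATRA libraries and 44006 and 30209 bp in the control libraries, with a log2 change of −0.03 ± 0.23 (SE, limma, adjusted p = 0.97). H3K27ac measured 29772 and 57726 bp in the ATRA libraries and 17304 and 42844 bp in the control libraries, and the groups overlapped widely (log2 change 0.59 ± 0.61, SE, limma, adjusted p = 0.66). Each ATRA library exceeded the control library of its number, by 0.75 and 0.42 on the log2 scale, and the change was −0.02 after centring and −0.04 without the first control library. At the first start, H3K27ac covered 3238 and 3868 bp of 4001 in the ATRA libraries and 2409 and 2901 bp in the control libraries, without overlap (log2 change 0.32 ± 0.19, SE, limma, adjusted p = 0.60). At the start of the canonical transcript, at 42.1 kb, it covered 1524 and 3985 bp in ATRA and 687 and 3559 bp in control libraries, which overlapped. At the third group of starts, it covered 4675 bp in both ATRA libraries and 4474 and 4675 bp in the control libraries. The 2 ATRA-only H3K27ac stretches, of 1082 and 1738 bp, lay 93.4 to 97.7 kb after the start in intron 2, and the same intron held a control-only H3K4me3 stretch of 1533 bp at 82.8 to 84.3 kb.

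ETV3 and ELK3 are known mainly as repressors, ELK3 as one that answers growth factor signalling together with the serum response factor. ETV3 lies at chr1:157090983-157108266 on the minus strand. H3K4me3 at ETV3 formed 1 peak over the start in each library, of 7651 and 8281 bp in ATRA and 7212 and 7397 bp in control cells, which did not overlap (log2 change 0.11 ± 0.14, SE, limma, adjusted p = 0.78). H3K27ac there measured 3041 and 3187 bp in the ATRA libraries and 2536 and 3729 bp in the control libraries, so the control values lay on both sides of the ATRA values (log2 change 0.01 ± 0.37, SE, limma, adjusted p = 0.99). ELK3, at chr12:96588153-96663602 on the plus strand, was marked by H3K4me3 over its start in all 4 libraries, with 5785 and 6721 bp in the window in ATRA and 5388 and 5253 bp in control cells (log2 change 0.20 ± 0.15, SE, limma, adjusted p = 0.64). H3K27ac was nearly absent from ELK3. It covered 0 and 2963 bp in the ATRA libraries and 0 and 200 bp in the control libraries, with nothing called in the first replicate of either condition. H3K4me3 covered all 4001 bp of the ELK3 promoter in 3 libraries and 3985 bp in the second control library, while little or no H3K27ac was called anywhere in its 115 kb window. The log2 change for H3K27ac was 0.86 ± 0.73 (SE, limma, adjusted p = 0.58), and it rests on the replicate 2 libraries.

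**Figure D4:**
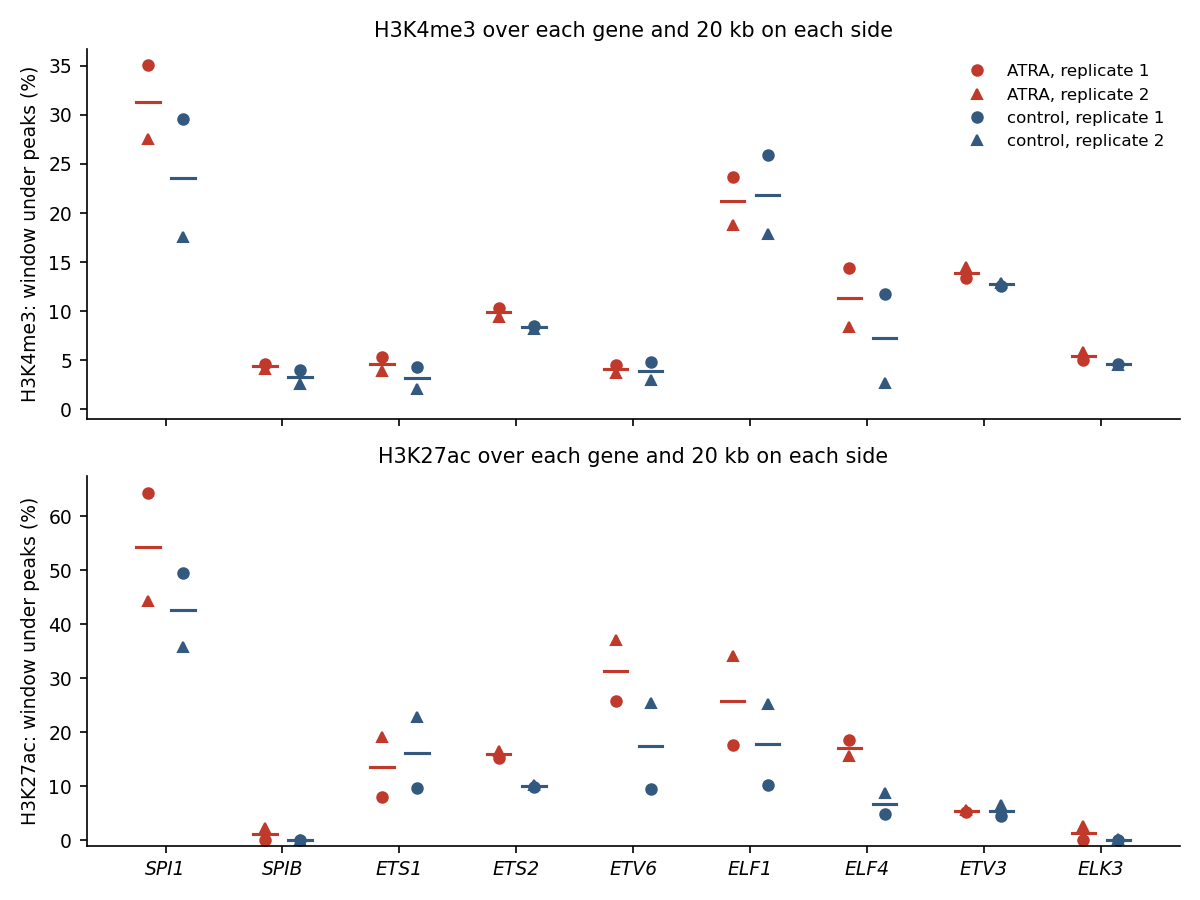
Share of each gene window under H3K4me3 (upper) and H3K27ac (lower) peaks in percent, with 1 point per library (circles for replicate 1, triangles for replicate 2) and a bar at the mean of each condition. SPI1 is highest for H3K27ac in every library (35.8% to 64.3%), and the ATRA and control points are apart for H3K27ac at ETS2, ETV6 and ELF4.

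Taking the 9 genes by test, none passed an adjusted p of 0.05 by limma in any of the 5 measures. For H3K4me3 windows, 0 of 9 were called, against 0.155% of all 14215 genes called higher and 0.0422% lower, and 0 of 9 had an unadjusted p below 0.05. For H3K27ac windows, 0 of 8 were called, with 1 unadjusted p below 0.05 (ELF4), and 0% of all 14361 genes were called in either direction, although 2702 of them had an unadjusted p below 0.05. At promoters, 0 of 7 were called for H3K4me3, against 0.434% of all genes higher and 0.139% lower, and 0 of 7 for H3K27ac, against 0% and 0%. None of these 7 had an unadjusted p below 0.05 for either mark. For H3K27ac more than 2 kb from any annotated start, 0 of 6 were called, against 0% in either direction, and again none had an unadjusted p below 0.05. At SPI1, this distal measure leaves out the whole upstream element, since starts of SLC39A13-AS1 lie inside it. It also leaves out part of the ATRA-only H3K27ac stretch, since the microRNA AC090559.2 starts 7.635 kb before SPI1.

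Counting the members whose 2 ATRA libraries lay apart from the 2 control libraries gave shares near those of all genes. For H3K4me3 windows, 4 of 9 were higher in ATRA (SPIB, ETS2, ETV3 and ELK3) and 0 lower, against 42.5% and 3.48% of all genes. For H3K27ac windows, 3 of 8 were higher (ETS2, ETV6 and ELF4) and 0 lower, against 47.1% and 4.16%. For H3K27ac at promoters, 3 of 7 were higher (ETS2, ELF1 and ELF4), against 37.8%, and 0 lower, against 4.83%. For ELF1, this holds at the first start, next to that of WBP4, and not at the start of the canonical transcript. For distal H3K27ac, 2 of 6 were higher (ETS2 and ELF4), against 49.7%, and 0 lower, against 4.85%. For H3K4me3 at promoters, 0 of 7 were apart, against 21% higher and 4.5% lower, and 4 of the 7 (SPI1, ETV6, ELF1 and ETV3) were covered over all 4001 bp in every library. The median log2 change of the members was 0.20 for H3K4me3 windows and 0.58 for H3K27ac windows, and that of all genes 0.16 and 0.52. For distal H3K27ac it was 0.65 for the members and 0.72 for all genes.

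**Figure D5:**
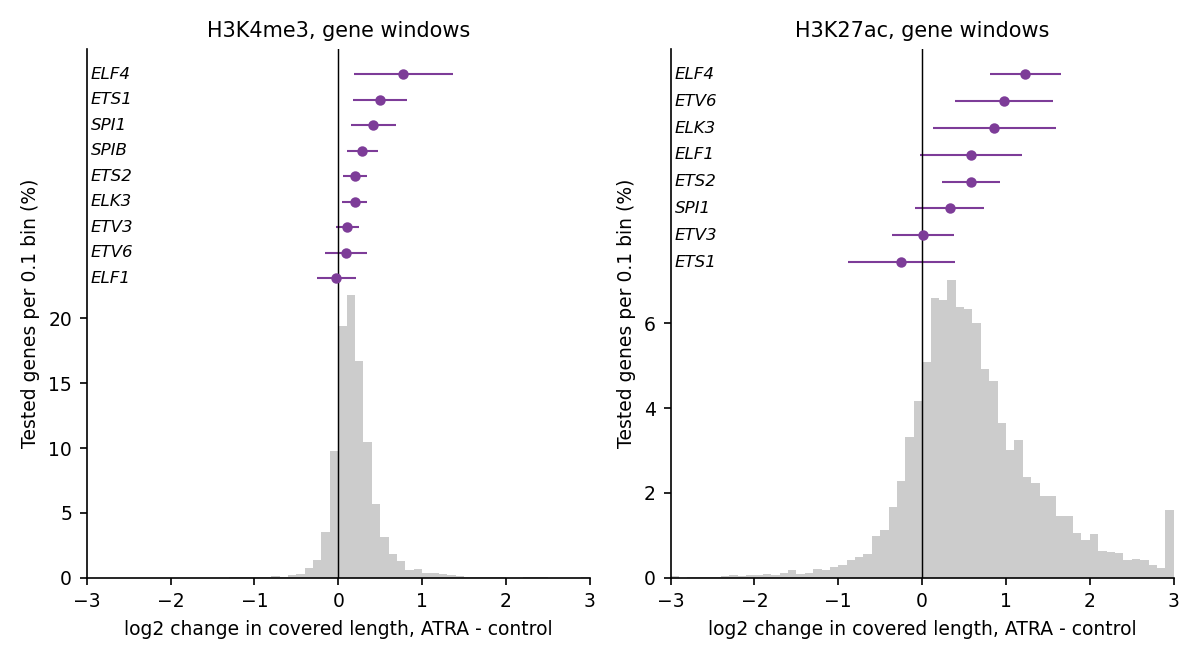
Log2 change of window length under peaks, ATRA minus control, for each member tested (point, with its SE from limma) above the distribution over all genes tested (grey, percent of genes per bin of 0.1, the outermost bins holding all genes beyond the axis). The members lie within the range of the grey distribution for both marks, with H3K27ac medians of 0.58 for the members and 0.52 for all genes.

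The other 19 ETS genes were counted in the same way. H3K4me3 windows could be tested for 11 of the 19 and H3K27ac windows for 14, and none was called by limma. Both ATRA libraries were above both control libraries for H3K27ac at 9 of 14 (FLI1, GABPA, ELF5, EHF, ETV2, ETV3L, ETV4, ERF and ELK1), against 47.1% of all genes, and below at 0. ELK1, a ternary complex factor like ELK3, stood farthest apart, with 10646 and 11524 bp in the ATRA libraries and 1523 and 860 bp in the control libraries. Its log2 change was 2.48 ± 0.38 (SE, limma, adjusted p = 0.085), or 1.88 after centring, and with the replicate block the adjusted p by limma was 0.0034. At the ELK1 promoter, H3K27ac covered 1154 and 1439 bp in the ATRA libraries and 767 and 0 bp in the control libraries. Distal H3K27ac covered 2831 and 2340 bp in the ATRA libraries and 0 bp in both control libraries. The rest lay within 2 kb of other annotated starts, and those of ELK1 and of neighbouring genes were not told apart. H3K4me3 windows were apart and higher at 3 of 11 (ETV2, ELK1 and ELK4), against 42.5% of all genes, and apart and lower at 2 of 11 (GABPA and ERF), against 3.48%, by log2 changes between −0.14 and 0.64. At promoters, 4 of 8 (ETV1, ETV2, ELK1 and ELK4) were apart and higher for H3K4me3, against 21% of all genes. For H3K27ac at promoters, 5 of 8 (GABPA, ETV1, ETV4, ERF and ELK1) were apart and higher, against 37.8%.

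Of 26 genes listed as partners or targets of SPI1 in myeloid cells, distal H3K27ac could be tested for 19. Both ATRA libraries were above both control libraries at 11 of the 19 and below at 0, against 49.7% and 4.85% of all genes, and none was called by limma. The median log2 change was 0.96, against 0.72 over all genes, and the centred medians were −0.19 and −0.43. Among the 4 with the largest change were ITGAM, an integrin chain of neutrophils and macrophages, NCF4, a cytosolic subunit of the phagocyte oxidase, and CYBB, the membrane subunit of the same oxidase. At ITGAM, it measured 7397 and 17401 bp against 0 and 4497 bp (log2 change 2.41 ± 1.03, SE, limma, adjusted p = 0.27, and 0.0085 with the replicate block). At NCF4, the log2 change was 2.36 ± 0.43 (SE, limma, adjusted p = 0.12, and 0.0072 with the block), and at CYBB 1.94 ± 1.05 (SE, limma, adjusted p = 0.35, and 0.030 with the block). The changes of these 3 were positive after centring too, between 0.78 and 1.26. For H3K4me3 windows, 13 of 23 were apart and higher and 1 apart and lower, against 42.5% and 3.48% of all genes. This 1 was GATA2, a factor of stem and progenitor cells that opposes SPI1, named after its values had been seen, with 7596 and 8347 bp in the ATRA libraries and 16334 and 13578 bp in the control libraries (log2 change −0.83 ± 0.16, SE, limma, adjusted p = 0.24). H3K27ac in the GATA2 window measured 0 and 690 bp in the ATRA libraries and 7577 and 7158 bp in the control libraries (log2 change −2.69 ± 0.42, SE, limma, adjusted p = 0.087, and 0.0034 with the block). Without the block or centring, the single call of the list was NCF1 for H3K4me3 at the promoter (277 and 269 bp in ATRA, 0 bp in both control libraries, limma, adjusted p = 0.019), which is uncertain because NCF1 has near-identical copies in the genome, and by limma its adjusted p was 0.37 with the block and 0.67 after centring. After centring, the calls by limma were instead CYBB (adjusted p = 1.2e-05, higher) and GATA2 (adjusted p = 0.00065, lower) for H3K4me3 at the promoter, GATA2 for H3K4me3 windows (adjusted p = 0.040, lower) and LYZ for distal H3K27ac (adjusted p = 0.025, lower), these being named after their values had been seen. Distal H3K27ac at LYZ measured 0 and 564 bp in the ATRA libraries and 66 and 6979 bp in the control libraries, so the groups overlapped. Its log2 change was −1.22 without centring (limma, adjusted p = 0.57) and −2.37 after centring, and the call rests on the second control library.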

How the data were processed

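H3K4me3 and H3K27ac ChIP-seq was performed on 2 ATRA and 2 control replicates each. Per the labels and the study's methods, the authors trimmed adapters with cutadapt, mapped the reads to hg19 using Bowtie, and ran MACS2 in broad mode on each library. Versions, and whether input libraries entered the peak call, are not given in the sources used here. Of the deposited columns, the peak positions and the −log10 q-value were used, the latter for filters and ranking. Those for fold enrichment and −log10 p contain impossible values and were left out. Whether the −log10 q column ranks peaks by strength was not tested. Whether replicates were separate cultures was not labelled, so the p-values measure the spread between these libraries.

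Overlapping peaks were merged. Bases under peaks were summed over each protein-coding gene of GENCODE release 44 (mapped to GRCh37) with 20 kb on each side, over 4001 bp around its 5′-most start, and over window bases more than 2 kb from any annotated start. Genes with a peak in at least 2 of the 4 libraries of a mark were tested on log2(bp + 1000) with limma 3.58.1 (R 4.3.3, robust empirical Bayes, two-sided, Benjamini-Hochberg threshold 0.05), so the change of a short length is understated. The pipeline was tested on simulated data. The alternatives were other pseudocounts, windows and filters, a −log10 q of at least 5, median centring, peak numbers, a replicate block, each replicate left out and, added after seeing the data, equal summed peak length and canonical starts. The SPI1 element was compared by an exact permutation test. Peak names carry 1 tag per replicate number that ATRA and control libraries of a mark share, so the numbers were read as pairs. Deviations from the group means correlated within numbers with r = 0.28 for H3K4me3 and 0.55 for H3K27ac across genes.

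The 9 genes and the lists of 19 other ETS genes and 26 partners or targets were chosen with earlier results of these data known. All 9 are described. Other ETS genes are named where their groups lay apart or a test passed, partners and targets for the 4 largest distal H3K27ac changes (1 of the 4, and 2 sequences, are not reported here), neighbours where they start in a window, and 3 genes for likeness to SPI1 in the share of window under peaks. Python 3.11.15 was used.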

Additional observations from a re-analysis of the deposited data

How the results depend on the processing

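The number of members called by limma was 0 in each of the 5 measures, and it was 1 in 1 setting with all libraries, the replicate block for H3K27ac windows (ELF4, log2 change 1.23, adjusted p = 0.042). Leaving out 1 library at a time gave 0 to 1 members called at H3K4me3 promoters, where ELK3 passed without the first control library with a log2 change of 0.0046, and 0 to 0 in the other 4 measures. The replicate block changed no other member's call. The difference in H3K4me3 at the SPI1 upstream element, 144 bp, was 270.5 bp with the interval widened by 1 kb on each side, 0 bp over its central 1 kb, where every library was covered, −831 bp with peaks of −log10 q of at least 5, and 78 to 209 bp with 1 library left out. For H3K27ac, no setting could show a difference, since every interval was fully covered in all 4 libraries and no peak over it reached a −log10 q of 5. Of 485 recomputed log2 changes of members, 58 had the other sign, all with neither value past the threshold, among them SPI1, ETS2 and ELF1 H3K27ac windows after centring. With equal summed peak length, the window change of H3K27ac was −4.75 at SPI1, −2.01 at ELF4 and −0.09 at ETV6. That setting kept the peaks of highest −log10 q, and the long peaks at SPI1 and ELF4 had values below 4. Like the filter at 5, it rests on a ranking by q-value that was not tested.

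Counts over all genes moved widely. For H3K4me3 windows, 22 higher and 6 lower genes became 241 and 40 with the block, 539 and 212 by peak numbers, and 0 and 0 with 5 kb flanks, with a −log10 q of at least 5 or without either control library. For H3K27ac windows, 0 and 0 became 3116 and 201 with the block, 655 and 122 by peak numbers, 35 and 6 without the filter, and 718 and 5 without the second control library. For distal H3K27ac, 0 and 0 became 2491 and 174 with the block, 849 and 105 by peak numbers, and 117 and 311 after centring, which lowered every change by 1.15. For H3K4me3 promoters, 47 and 15 became 0 and 0 with the block and 1504 and 42 without the first control library, and for H3K27ac promoters 0 and 0 became 165 and 14 with 1 kb on each side. The cause of these moves was not tested. Peak numbers at promoters, and H3K4me3 promoters without the filter, could not be fitted, since most genes had no spread there. The numbers of reads are unknown, the precision rests on 2 libraries per condition, and differences within their spread, as at most members, were not detectable.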
